A study of Mus musculus with 8 samples.

Results

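Adipose tissue takes up lipid by several routes, and 10 genes of those routes were followed here in the epididymal white fat of male mice, a gonadal depot: Lpl, Gpihbp1, Cd36, Fabp4, Fabp5, Vldlr, Lrp1, Msr1, Marco and Olr1. They were chosen by name, as genes of lipid uptake and fatty acid binding, from the 24821 genes of the deposited table, with earlier results of these data known. All 10 were found through the GENCODE M21 annotation and passed the filter on low values. The 4 KO libraries came from male Ccdc92 knockout mice, and the 4 WT libraries came from wild type littermates of the same age. Both groups were C57BL/6 and were fed for 14 weeks a high-fat diet in which fat gave 60% of the calories and protein and carbohydrate 20% each, so that no lean or low-fat sample stands beside them. The labels do not say which part of Ccdc92 was deleted or that the libraries stem from different animals. The p-values therefore measure the spread between libraries, which may be no more than technical.

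Fat in the blood travels as triglyceride inside lipoprotein particles. Lipoprotein lipase, made by adipocytes and macrophages, is carried by GPIHBP1 to the lumen of capillaries, where it frees fatty acids that enter cells with the help of CD36 and are then bound inside the cell by fatty acid binding proteins. Whole particles and modified lipoproteins are taken in instead by receptors of the LDL receptor family and by scavenger receptors, which are prominent in macrophages. By their known expression, Lpl, Cd36, Fabp4, Fabp5, Vldlr and Lrp1 were treated as genes shared by adipocytes and macrophages, Msr1 and Marco as genes of macrophages, Gpihbp1 as a gene of capillary endothelium, and Olr1 apart, since endothelium, macrophages and adipocytes can all express it.

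In KO fat the lipase gene Lpl, its capillary anchor Gpihbp1 and the adipocyte fatty acid carrier Fabp4 rose, although the direction of Lpl and the call of Fabp4 were lost with quantile normalization. The carrier Fabp5, the lipoprotein receptor Lrp1 and the scavenger receptors Msr1 and Olr1 fell, and Cd36, Vldlr and Marco did not pass the test. These 7 of 10 calls stand against a background of 41.7% of the 17798 genes tested (limma, adjusted p under 0.05), with 20.2% higher and 21.5% lower in KO. Values are normalized counts, that is reads scaled for library depth, and each log2 fold change is the KO minus the WT mean of log2(normalized count + 1). The median log2 fold change was -0.42 over the 10 genes and -0.01 over all genes tested. The KO and WT libraries did not overlap for the same 7 genes, against 42.1% of all genes tested: KO lay above WT for 3 (21.0% of all genes) and below it for 4 (21.1%). Both directions were found among the genes shared by adipocytes and macrophages, with 2 of 6 higher, 2 lower and a median log2 fold change of 0.10.

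**Figure D1:**
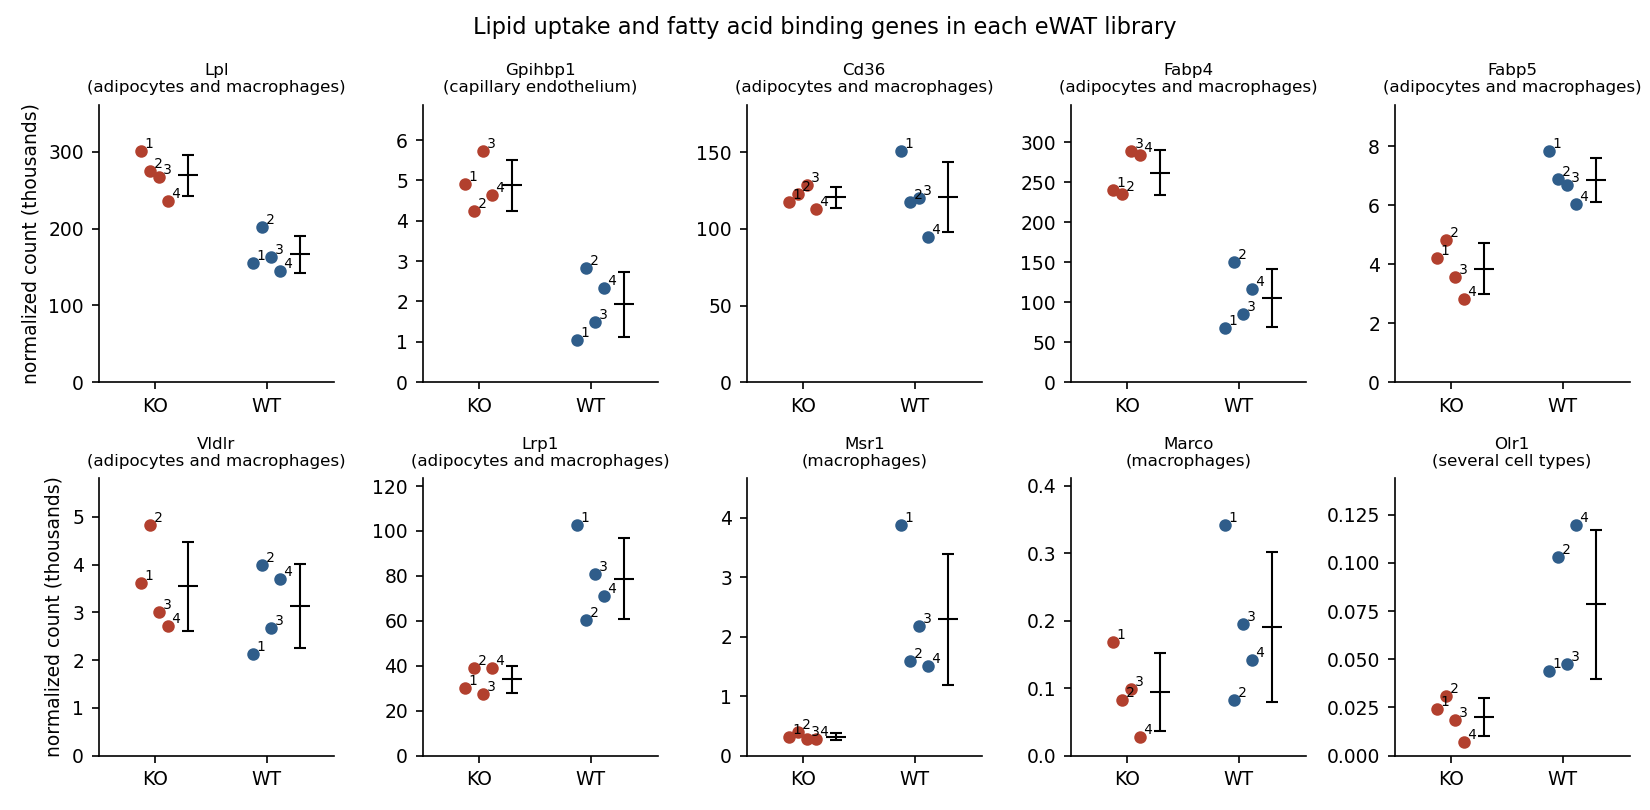
Normalized counts (y axis, in units of 1000, from 0) of the 10 genes, 1 panel per gene, with KO libraries on the left in red and WT libraries on the right in blue. Numbers are replicate numbers, and bars give the mean ± SD of 4 libraries. On the deposited scaling, KO lies wholly above WT for Lpl, Gpihbp1 and Fabp4 and wholly below it for Fabp5, Lrp1, Msr1 and Olr1, and the groups overlap for Cd36, Vldlr and Marco.

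The libraries held 23681088 to 33817478 reads assigned to genes. The targeted gene Ccdc92 had 4 to 9 reads in KO libraries and 59 to 114 in WT libraries, and its log2 fold change was -3.34 (SE 0.33, adjusted p = 0.000383 by limma). Adipocyte markers were abundant in both groups: the summed normalized count of 10 such genes was 910932 to 1296170 in KO and 175193 to 366593 in WT, and 9 of the 10 were higher in KO. Transcripts of the neighbouring epididymis differed between groups, with a sum over 6 markers of 6.06 to 679.3 in KO and 45140 to 115704 in WT, and Crisp1, Akr1b7, Adam7, Lcn8 and Serpina1f were at 0 in at least 1 library. The highest sum, in WT replicate 4, came mostly from Akr1b7, at 80636 there and 188.1 to 211.6 in the other WT libraries. Single markers placed that library differently among the WT libraries: Crisp1 was lowest there, at 26575, and Defb42 highest, at 1440. The sum therefore does not rank the WT libraries by epididymal content. WT replicate 3 also stood apart by genes typical of liver. Fabp1, the liver fatty acid binding protein, reached 2143 there, against 1.21 to 35.04 in the 4 KO libraries and 0.936 to 6.73 in the other WT libraries. Without WT replicate 3, 5641 genes passed in place of 7423, and the calls of the 10 genes did not change. The part of these differences in the results was not tested.

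Promoter windows were available from RefSeq (GRCm38.p6) for 5 of the 10 genes, and 3 are printed because they belong to genes that behaved differently here: Cd36, which did not pass, and Lrp1 and Olr1, which fell. Each window runs from 250 bases before to 50 bases after an annotated start, on the minus strand of chr5:17835847-17836146 for Cd36, chr10:127621099-127621398 for Lrp1 and chr6:129507116-129507415 for Olr1. Capitals mark matches, on either strand, to a nuclear receptor hexamer (AGGTCA), an AP-1 site (TGANTCA) or a GC box (GGGCGG), and no marked match overlaps another.
Cd36: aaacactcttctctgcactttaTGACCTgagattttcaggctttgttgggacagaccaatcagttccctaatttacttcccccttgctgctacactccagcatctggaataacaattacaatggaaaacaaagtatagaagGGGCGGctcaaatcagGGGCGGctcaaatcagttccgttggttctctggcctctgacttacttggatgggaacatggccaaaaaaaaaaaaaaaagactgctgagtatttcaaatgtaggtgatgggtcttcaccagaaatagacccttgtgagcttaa
Lrp1: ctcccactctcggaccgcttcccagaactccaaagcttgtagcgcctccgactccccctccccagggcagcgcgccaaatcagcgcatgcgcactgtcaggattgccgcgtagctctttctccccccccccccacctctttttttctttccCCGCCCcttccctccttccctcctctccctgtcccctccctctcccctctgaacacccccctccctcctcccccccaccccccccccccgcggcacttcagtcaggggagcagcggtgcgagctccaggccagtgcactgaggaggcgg
Olr1: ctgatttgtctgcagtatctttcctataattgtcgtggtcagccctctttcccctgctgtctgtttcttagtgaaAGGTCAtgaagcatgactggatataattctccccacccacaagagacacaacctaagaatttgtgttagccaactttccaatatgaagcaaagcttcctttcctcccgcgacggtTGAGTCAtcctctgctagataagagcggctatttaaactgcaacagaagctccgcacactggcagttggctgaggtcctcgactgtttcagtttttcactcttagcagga
The Cd36 window, with 43.0% G and C, holds 2 GC boxes and 1 hexamer on the opposite strand. Its GC boxes begin 109 and 93 bases before the start. The Lrp1 window is richer in G and C (67.7%, against a median of 52.7% over all windows) and holds 1 GC box, on the opposite strand. In the Olr1 window, a hexamer begins 175 bases and an AP-1 site 60 bases before the start. Among all 32851 RefSeq windows of this length, 16.3% hold the hexamer, 7.81% the AP-1 site and 35.7% the GC box. The Cd36 window lies inside the longer span that GENCODE gives the gene.

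Lpl, on chromosome 8 (68880491 to 68907448, plus strand, GRCm38), encodes the lipase that releases fatty acids from circulating triglyceride. Its normalized counts were 300954, 274723, 266688 and 235716 in KO replicates 1 to 4, against 155512, 201808, 162623 and 145321 in WT replicates 1 to 4. Every KO value exceeded every WT value, and in all 8 libraries Lpl was among the 10 most abundant genes. Lpl averaged 269520 ± 26869 in KO and 166316 ± 24704 in WT (SD, n = 4 each), 0.70 higher in KO on the log2 scale (SE 0.16, adjusted p = 0.00904 by limma). This direction depends on the kind of scaling. Lpl stayed higher and passed with edgeR, with DESeq2 and with TMM, another scaling by a single factor per library. With quantile normalization, which moved the median of all genes by 0.104, the log2 fold change of Lpl was -0.25 (limma adjusted p = 0.482).

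Gpihbp1, on chromosome 15 (75596628 to 75599481, plus strand), encodes the capillary protein that binds lipoprotein lipase. It had 4918, 4231, 5725 and 4645 normalized counts in KO, against 1047, 2824, 1503 and 2335 in WT. The groups did not overlap, and the WT libraries spread more widely (coefficient of variation 41.6%) than the KO libraries (12.9%). Means were 4880 ± 630 in KO and 1927 ± 801 in WT (SD, n = 4 each), and KO was higher by 1.43 on the log2 scale (SE 0.29, adjusted p = 0.00517 by limma). Endothelial markers were higher as well: of 10 general endothelial genes 7 rose and 0 fell, with a summed normalized count of 42150 to 45605 in KO and 17350 to 35769 in WT. Of 6 capillary markers 4 rose, among them Rgcc at 7005 ± 701 in KO and 2077 ± 724 in WT (SD, n = 4 each) and Aqp7, an aquaglyceroporin that adipocytes also express. The other 2, Aplnr and Car4, had negative log2 fold changes of -1.03 and -0.37 and did not pass (limma adjusted p = 0.0537 and 0.517). In whole tissue a change in the number of cells of a type cannot be told apart from a change in RNA per cell, and the part of endothelial cells in the Gpihbp1 result was not tested.

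The lipase and its anchor can be set against each other within each library, a ratio that no single factor per library alters. Quantile normalization is not such a factor, and the ratio was not tested under it. Lpl had 61.2, 64.9, 46.6 and 50.7 normalized counts for each normalized count of Gpihbp1 in KO, against 148.6, 71.5, 108.2 and 62.2 in WT. Only WT replicate 4 came within the KO range. The difference of mean log2 ratio was -0.73 (SE 0.31, two-sided exact permutation p = 0.0571, 70 splits), so it did not pass. Without WT replicate 4 the difference was -0.92 (exact permutation p = 0.0286 over the fewer splits), the smallest that set of samples allows.

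Among 9 other genes that mature or restrain the lipase, 4 rose and 1 fell, with a median log2 fold change of 0.07. The counts for this and each later role stand beside 20.2% higher and 21.5% lower among all genes tested. Lmf1, the chaperone that folds lipases in the endoplasmic reticulum, averaged 759.8 ± 73.5 in KO and 495.2 ± 40.9 in WT (SD, n = 4 each; log2 fold change 0.62, limma adjusted p = 0.00179). Pcsk6 and Pcsk5, proprotein convertases that can cleave lipases and angiopoietin-like proteins, rose with log2 fold changes of 1.77 (SE 0.25) and 0.95 (SE 0.17), while Furin, a convertase of the same family, fell with one of -0.37 (SE 0.07). Angptl4, a secreted inhibitor of lipoprotein lipase, passed narrowly at 19001 ± 3362 in KO and 13578 ± 2408 in WT (SD, n = 4 each; log2 fold change 0.48, SE 0.17, limma adjusted p = 0.0473). That call was lost without KO replicate 1 (limma adjusted p = 0.103), KO replicate 2 (0.1055), KO replicate 3 (0.0745), WT replicate 1 (0.110), WT replicate 2 (0.0513) or WT replicate 3 (0.125). Lmf2, Sel1l and Angptl8 did not pass.

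Of 3 related lipases tested, Lipa, the acid lipase of lysosomes, fell to 3421 ± 922 in KO, against 22613 ± 9583 in WT (SD, n = 4 each; log2 fold change -2.66, SE 0.30, limma adjusted p = 0.000602). Lipa is also 1 of the 8 markers of lipid-associated macrophages used here, all of which fell. No apolipoprotein among 4 tested passed. Apoe, a ligand for receptors of the LDL receptor family, averaged 141851 ± 28108 in KO and 97622 ± 18153 in WT (SD, n = 4 each; log2 fold change 0.53, limma adjusted p = 0.0557).

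Cd36, on chromosome 5 (17781690 to 17888801, minus strand), encodes the membrane protein through which adipocytes take up fatty acids and macrophages take up oxidized lipoprotein. Its normalized counts were 117799, 122608, 128792 and 113045 in KO, against 150749, 117229, 120373 and 94607 in WT. The 4 KO values lay inside the WT range, and the means were nearly equal, at 120561 ± 6734 in KO and 120739 ± 23065 in WT (SD, n = 4 each). The log2 fold change was 0.02 (SE 0.16, 95% interval -0.36 to 0.39, adjusted p = 0.946 by limma). Its sign turned with the samples and the scaling, to -0.02 without KO replicate 3, -0.09 without WT replicate 4 and -0.32 with quantile normalization (limma adjusted p = 0.239). The coefficient of variation was 5.59% in KO and 19.1% in WT.

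The ratio of Cd36 to several of its neighbours in the pathway did differ between groups. With Cd36 itself at 0.02, these differences largely repeat the neighbours' own log2 fold changes: Lpl 0.70, Fabp4 1.38, Lrp1 -1.21 and Msr1 -2.75. Cd36 stood at 39.1%, 44.6%, 48.3% and 48.0% of the normalized count of Lpl in KO, against 96.9%, 58.1%, 74.0% and 65.1% in WT. No KO library reached the lowest WT library. The log2 ratio of Lpl to Cd36 was higher by 0.69 in KO (SE 0.17), and that of Fabp4 to Cd36 by 1.36 (SE 0.37). The log2 ratio of Cd36 to Lrp1 was higher by 1.22 (SE 0.20) and that of Cd36 to Msr1 by 2.76 (SE 0.23). Each of these 4 differences had a two-sided exact permutation p of 0.0286, the smallest 70 splits can give, and 0.0459 after Benjamini-Hochberg adjustment over 45 pairs of genes, which were chosen after the values had been seen. With quantile normalization, Lpl and Cd36 had close log2 fold changes of -0.25 and -0.32, and these ratios were not tested on that scale.

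Genes that act with CD36 moved in both directions, 3 higher and 3 lower of 10 tested, beside 20.2% higher and 21.5% lower of all genes. Cav1 and Cavin1, which build caveolae, averaged 64156 ± 7990 and 63934 ± 3942 in KO, against 26375 ± 9391 and 33059 ± 9883 in WT (SD, n = 4 each). Pparg, the nuclear receptor that drives adipocyte genes including Cd36 and Fabp4, rose by 1.00 on the log2 scale (SE 0.14, adjusted p = 0.00109 by limma). The Src-family kinases Lyn and Fyn, which signal downstream of CD36, fell with log2 fold changes of -0.99 (SE 0.18) and -0.48 (SE 0.10). Got2, whose mitochondrial enzyme has also been described as a fatty acid binding protein of the plasma membrane, fell with one of -1.37 (SE 0.28, limma adjusted p = 0.0055).

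Among 5 fatty acid transport proteins tested, which couple entry to activation with coenzyme A, 2 rose and 1 fell. Slc27a1, the insulin-responsive member in fat, had 21306, 15200, 26462 and 36089 normalized counts in KO, against 9503, 13936, 9445 and 10926 in WT (log2 fold change 1.12, SE 0.26, limma adjusted p = 0.00923). Its groups did not overlap. Slc27a4 fell to 1238 ± 94.4 in KO, against 1635 ± 84.4 in WT (SD, n = 4 each; log2 fold change -0.40, SE 0.08, limma adjusted p = 0.00425). The Slc27a3 call is given with the alternatives, since most single libraries decide it.

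Fabp4, on chromosome 3 (10204088 to 10208576, minus strand), encodes the abundant fatty acid binding protein of adipocytes, which macrophages make as well. It had 240213, 235224, 289025 and 283695 normalized counts in KO, against 68003, 149965, 84995 and 116513 in WT. All KO libraries exceeded all WT libraries, with means of 262039 ± 28241 in KO and 104869 ± 36163 in WT (SD, n = 4 each). On the log2 scale KO differed from WT by 1.38 (SE 0.25, adjusted p = 0.00321 by limma). It was 0.68 with quantile normalization and no longer passed (limma adjusted p = 0.099). Of the 10 adipocyte markers, 9 rose and Lep, which encodes leptin, did not pass (limma adjusted p = 0.750), and the part of adipocytes in the Fabp4 result was not tested.

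Fabp5, on the same chromosome (10012548 to 10016607, plus strand), encodes a related carrier named for epidermis and found in macrophages, endothelium and adipocytes. It went the other way. Normalized counts were 4202, 4814, 3583 and 2818 in KO, against 7842, 6912, 6691 and 6036 in WT, so that no KO library reached the lowest WT library. Means were 3854 ± 854 in KO and 6870 ± 747 in WT (SD, n = 4 each), giving -0.86 on the log2 scale (SE 0.17, adjusted p = 0.00428 by limma). The longest identical run between the Fabp4 and Fabp5 messages is 12 bases.

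Fabp5 amounted to 1.75%, 2.05%, 1.24% and 0.993% of Fabp4 in KO, against 11.5%, 4.61%, 7.87% and 5.18% in WT. No KO library reached the WT range of this ratio, which was lower in KO by 4.71-fold on the mean log2 scale (difference -2.24, SE 0.38, two-sided exact permutation p = 0.0286, the smallest possible). Fabp4 and Fabp5 had each separated the groups, in opposite directions. The separation of their ratio and its p-value follow from that and add no evidence. The share of Gpihbp1, by contrast, did not pass. It came to 2.05%, 1.80%, 1.98% and 1.64% of Fabp4 in KO, against 1.54%, 1.88%, 1.77% and 2.004% in WT. The 2 groups of that ratio overlapped, with a log2 difference of 0.05 (SE 0.11, exact permutation p = 0.6).

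**Figure D2:**
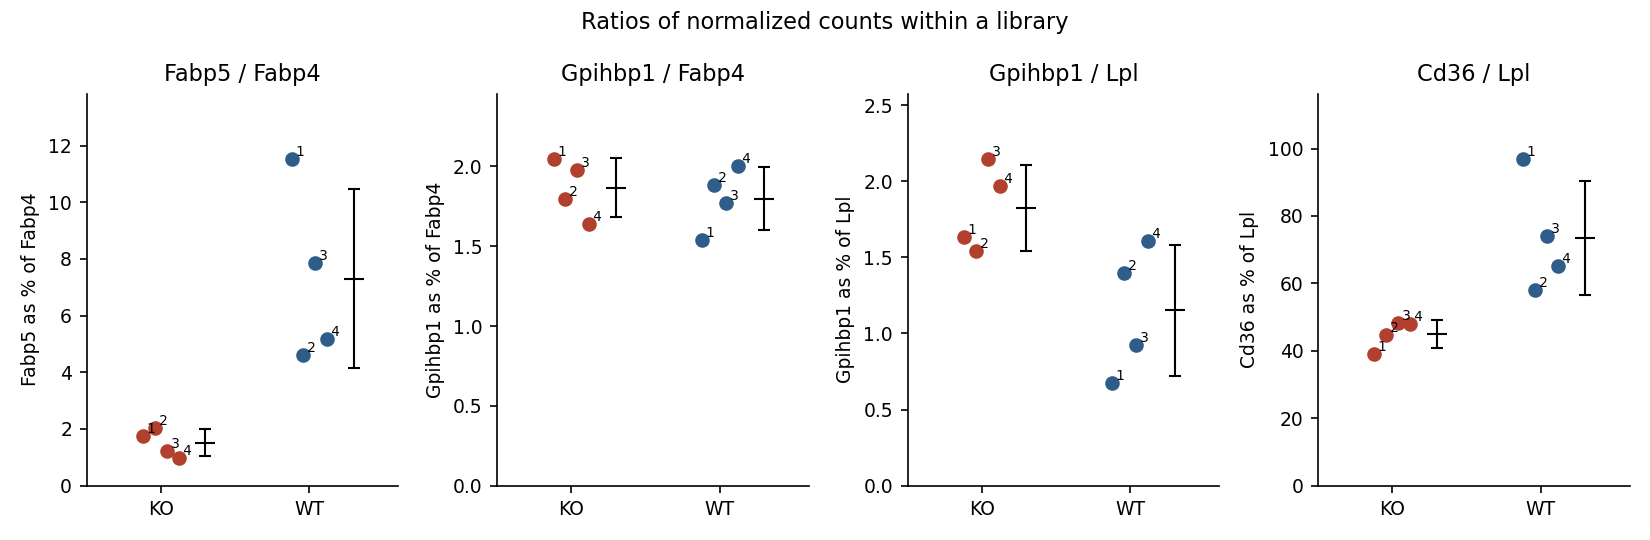
Ratios of normalized counts within each library (percent, y axes), KO in red on the left and WT in blue on the right, with replicate numbers. On the deposited scaling, Fabp5 as a share of Fabp4 and Cd36 as a share of Lpl lie lower in all 4 KO libraries than in any WT library. Gpihbp1 as a share of Fabp4 overlaps between the groups, and Gpihbp1 as a share of Lpl overlaps only through WT replicate 4.

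Other intracellular lipid carriers had 2 higher and 2 lower of 5 tested, too few genes to set against the shares over all genes. Dbi, the acyl-CoA binding protein, averaged 15947 ± 2172 in KO and 7262 ± 1693 in WT (SD, n = 4 each; log2 fold change 1.15, limma adjusted p = 0.00186). Scp2, a sterol carrier protein, rose by 0.68 on the log2 scale (SE 0.20, adjusted p = 0.0236 by limma), a call lost without KO replicate 3 (adjusted p = 0.0631), KO replicate 4 (0.0604) or WT replicate 4 (0.0554). Fabp3, the carrier of heart and muscle, and Fabp7, that of brain, were low genes that fell: Fabp3 averaged 17.8 ± 1.68 in KO and 75.4 ± 27.8 in WT, and Fabp7 averaged 16.1 ± 7.61 in KO and 99.4 ± 56.2 in WT (SD, n = 4 each).

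Vldlr, on chromosome 19 (27216484 to 27254231, plus strand), encodes the receptor that binds triglyceride-rich lipoproteins in fat, heart and muscle. It had 3605, 4837, 3017 and 2719 normalized counts in KO, against 2119, 3999, 2678 and 3706 in WT. The groups overlapped over most of their range. The fitted log2 change was 0.19 (SE 0.24, 95% interval -0.36 to 0.74, adjusted p = 0.552 by limma).

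Lrp1, on chromosome 10 (127538161 to 127621148, minus strand), encodes a large endocytic receptor for apolipoprotein E, lipase and many other ligands. Its normalized counts were 30123, 39007, 27403 and 39134 in KO, against 102824, 60501, 80778 and 71040 in WT. Every KO library lay below the lowest WT library, and means were 33917 ± 6054 in KO and 78786 ± 18038 in WT (SD, n = 4 each). KO over WT gave a log2 fold change of -1.21 (SE 0.20, adjusted p = 0.00212 by limma). An antisense gene within the same span, Gm16217, averaged 5.08 normalized counts and shares no exon with Lrp1.

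Of 17 relatives and partners of the LDL receptor, 3 rose, 6 fell and 8 did not pass, with a median log2 fold change of -0.19. Dab2, an adaptor that links such receptors to clathrin, fell to 2883 ± 495 in KO, against 5148 ± 972 in WT (SD, n = 4 each; log2 fold change -0.84, SE 0.17, limma adjusted p = 0.00523). Lrp4, Lrp8 and Lrp12 fell as well, at -1.59, -1.76 and -1.07. Lrp5, a co-receptor for Wnt ligands, Lrp11 and Gulp1, an engulfment adaptor that binds LRP1, rose with log2 fold changes of 0.53, 0.53 and 1.33.

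Msr1, on chromosome 8 (39581685 to 39642673, minus strand), encodes the class A scavenger receptor of macrophages, which takes up modified lipoproteins. It had 314.9, 399.9, 285.9 and 274.1 normalized counts in KO, against 3886, 1588, 2182 and 1510 in WT. The highest KO library lay well below the lowest WT library, with means of 318.7 ± 56.8 in KO and 2292 ± 1104 in WT (SD, n = 4 each). The log2 fold change of -2.75 (SE 0.29, adjusted p = 0.00049 by limma) makes KO 6.72-fold lower on the fitted scale, the largest change among the 10 genes. Of 10 macrophage markers 9 fell and 0 rose, with a summed normalized count of 42587 to 67835 in KO and 116291 to 245518 in WT and a median log2 fold change of -1.43. All 8 markers of lipid-associated macrophages fell, with a sum of 7837 to 19975 in KO and 94567 to 274491 in WT and a median of -3.92. No marker of these lists was at 0 in any library, and the part of macrophages in the Msr1 result was not tested.

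Marco, on chromosome 1 (120474538 to 120505024, minus strand), encodes another class A receptor, of resident macrophages that clear particles. It had 168.9, 82.9, 98.9 and 27.9 normalized counts in KO, against 342.2, 81.7, 194.9 and 142.3 in WT. The groups overlapped, and the libraries of each group spread widely (coefficient of variation 61.4% in KO and 58.5% in WT). Its log2 fold change was -1.07 (SE 0.59, 95% interval -2.41 to 0.27, adjusted p = 0.176 by limma). Within libraries Marco came to 53.6%, 20.7%, 34.6% and 10.2% of Msr1 in KO, against 8.81%, 5.15%, 8.93% and 9.42% in WT, so that every KO library lay above the WT range (log2 difference 1.68, SE 0.55). KO replicate 4 did so narrowly, on 23 Marco reads, with an exact Poisson interval of 14.6 to 34.5 for counting error, so its place above that range is uncertain.

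Olr1, on chromosome 6 (129485244 to 129507165, minus strand), encodes LOX-1, a lectin-like receptor for oxidized lipoprotein. It was the lowest of the 10, with 24.1, 30.8, 18.3 and 7.28 normalized counts in KO, against 44.0, 102.9, 47.3 and 119.8 in WT. The KO libraries lay below the WT libraries, on 6 to 36 reads in KO and 48 to 128 reads in WT. KO replicate 4 had 6 reads, with an exact Poisson interval of 2.20 to 13.1 that covers counting error only. The log2 fold change was -1.94 (SE 0.50, adjusted p = 0.0148 by limma). With WT replicate 4 and KO replicate 3 both left out, it was -1.70 and did not pass (limma adjusted p = 0.0713).

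Of 16 other scavenger receptors tested, 2 rose, 8 fell and 6 did not pass, with a median log2 fold change of -0.54. Cd68, a lysosomal protein of macrophages, averaged 2520 ± 850 in KO and 16734 ± 5202 in WT (SD, n = 4 each; log2 fold change -2.73, limma adjusted p = 0.000406). Clec7a, the beta-glucan receptor Dectin-1, fell with a log2 fold change of -2.58 (SE 0.25). Stab1 and Stab2, which clear matrix fragments and modified lipoproteins in macrophages and sinusoidal endothelium, fell with log2 fold changes of -1.19 (SE 0.22) and -1.90 (SE 0.27). Cd163, the haemoglobin-haptoglobin receptor of resident macrophages, went the other way, at 4861 ± 720 in KO and 1841 ± 622 in WT (SD, n = 4 each; log2 fold change 1.45, SE 0.22, limma adjusted p = 0.00156). Scarb1, the high-density lipoprotein receptor, averaged 4978 ± 300 in KO and 4953 ± 863 in WT and did not pass (limma adjusted p = 0.904).

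**Figure D3:**
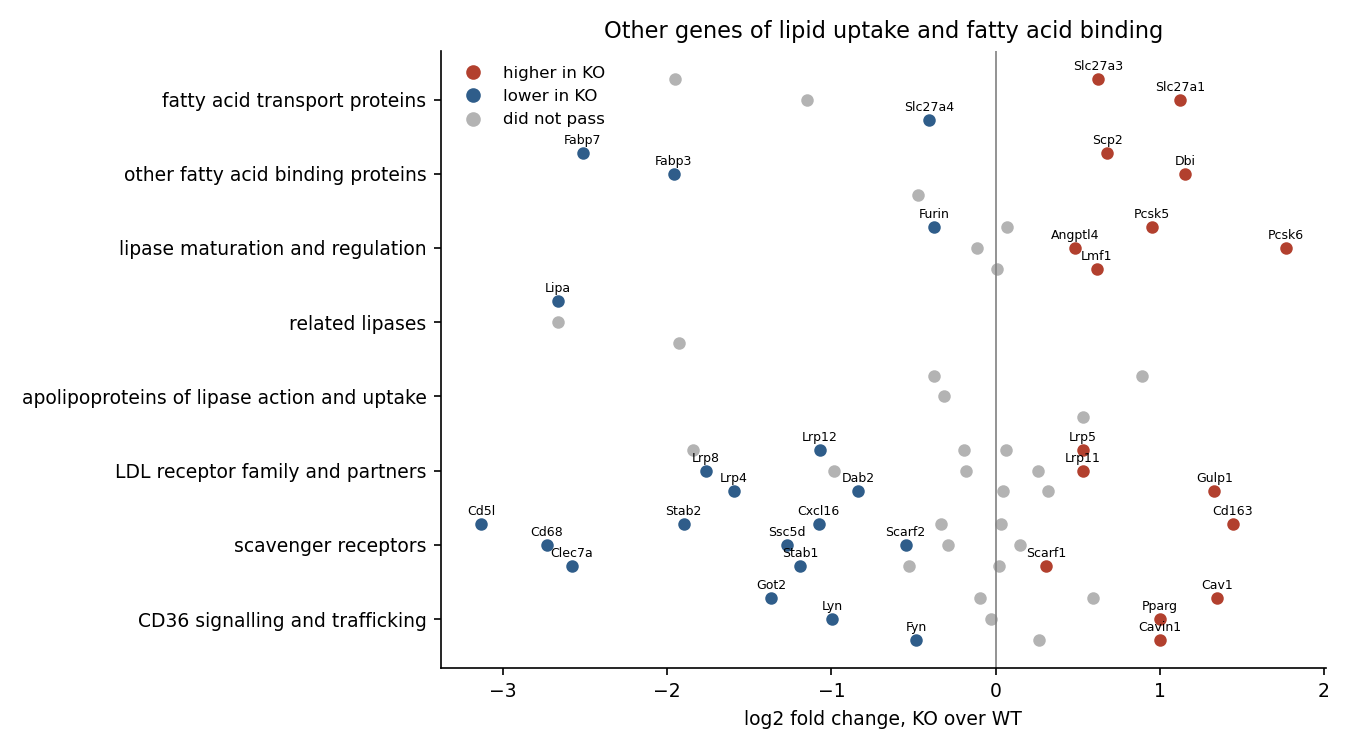
Log2 fold change, KO over WT (x axis), of 66 tested genes of lipid uptake and fatty acid binding outside the 10, 1 point per gene, grouped by role. Red points rose, blue points fell and grey points did not pass limma's test. Of these, 16 rose and 20 fell, and both directions occur in every role except related lipases, where 1 gene fell, and apolipoproteins, where no gene passed.

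Across all these roles, 16 of the 69 further genes tested rose (23.2%) and 22 fell (31.9%), beside 20.2% and 21.5% of all genes, with a median log2 fold change of -0.19. Another 6 of the 80 listed genes were below the filter and 5 were not in the table. With quantile normalization 15 rose and 24 fell, while over all genes that scaling turned 3592 higher and 3831 lower calls into 4593 higher and 3257 lower.

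The cell type lists measured beside the 10 genes had medians of either sign. Those of the macrophage and lipid-associated macrophage lists were -1.43 and -3.92. The adipocyte markers had a median of 1.89 and the general endothelial markers one of 0.71. Peritoneal macrophage markers divided, with 3 higher and 2 lower of 6, and fibroblast markers had 1 of each among 6. No mesothelial marker among 6 passed limma's test.

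Set beside those lists, Msr1 at -2.75 lay between the medians of the macrophage and the lipid-associated macrophage lists. Gpihbp1 at 1.43 lay above the median of the capillary list (0.99), and Fabp4 at 1.38 below that of the adipocyte list. Cd36 and Lpl, among the genes shared by adipocytes and macrophages, lay between the macrophage and the adipocyte medians, and so did Vldlr, Fabp5 and Lrp1. That wide range is not particular to shared genes. It also held Gpihbp1, Marco at -1.07 and the median of all genes tested (-0.01). Whether this order reflects the makeup of the tissue was not tested.

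**Figure D4:**
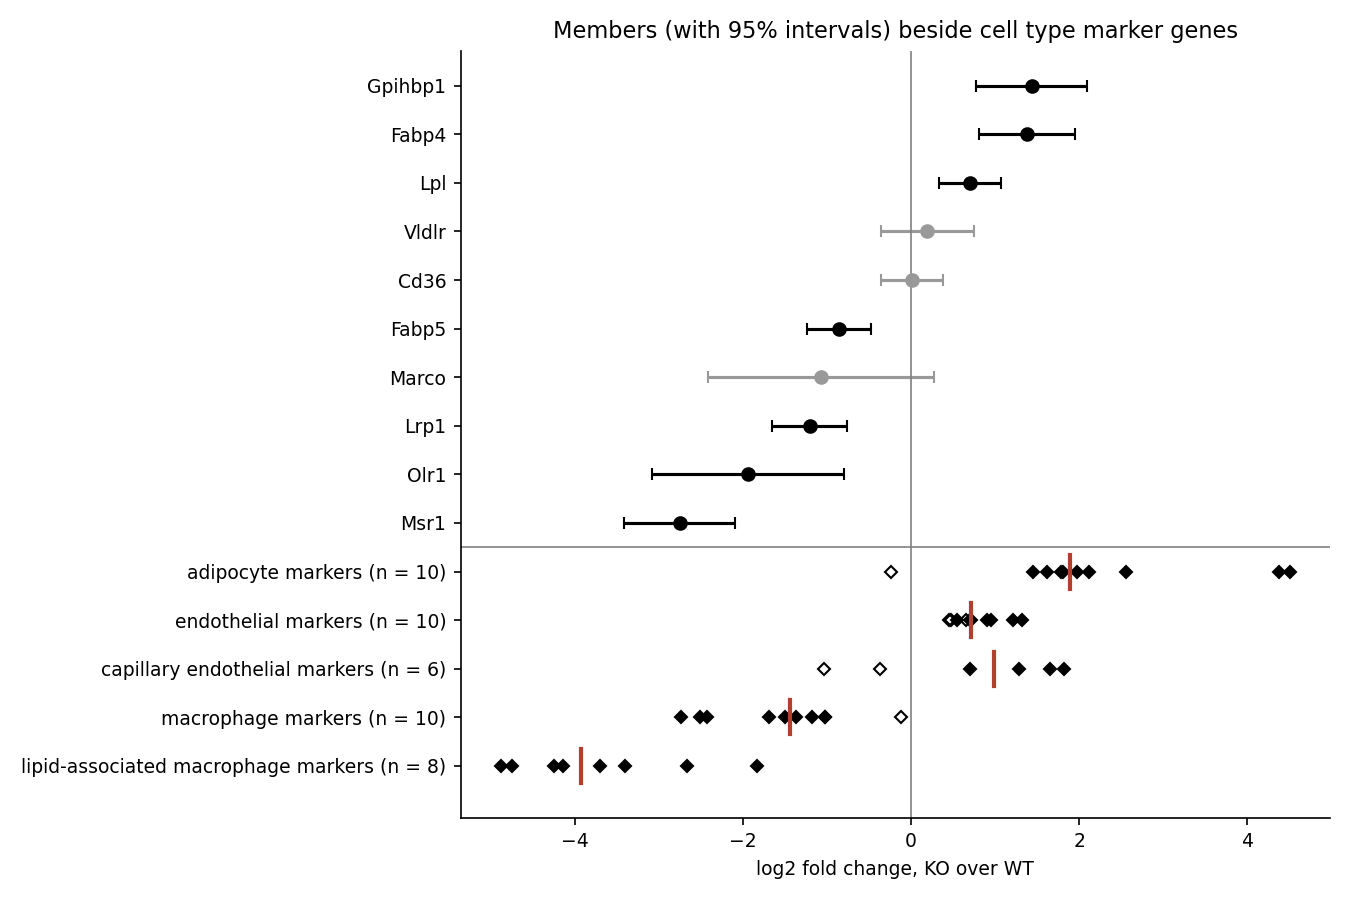
Log2 fold change, KO over WT (x axis), of the 10 genes with 95% intervals (upper part, grey where the test was not passed), above the marker genes of 5 cell lists, 1 diamond per gene, open where the test was not passed, with a red bar at each list's median. Cd36, Vldlr and Marco have intervals that span 0, and the 10 genes range from -2.75 for Msr1 to 1.43 for Gpihbp1.

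Log2 ratios of all 45 pairs of the 10 genes were compared between groups within libraries, on the deposited scaling. The groups did not overlap for 28 pairs and overlapped for 17, beside 41.1% of all pairs of tested genes. All 28 had an exact permutation p of 0.0286 and an adjusted p of 0.0459. With 4 libraries in each group, that p follows from the lack of overlap itself. Pairs of a gene that rose with a gene that fell had to separate, so they add no evidence to the results of the single genes. The widest difference was that of Gpihbp1 to Msr1, at 4.18 on the log2 scale (SE 0.66). Msr1 was set apart from 8 of the other 9 genes, lower against each, and only its ratio to Olr1 overlapped. Cd36 was set apart from 7, the genes that passed on their own, higher against 4 of them and lower against 3. Marco was set apart from 1 gene alone, Msr1, and only narrowly in KO replicate 4. Fabp5 and Lrp1, which fell together, had overlapping ratios (log2 difference 0.35, SE 0.25, exact permutation p = 0.257), as had Vldlr and Cd36 (0.18, SE 0.38, exact permutation p = 0.686).

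**Figure D5:**
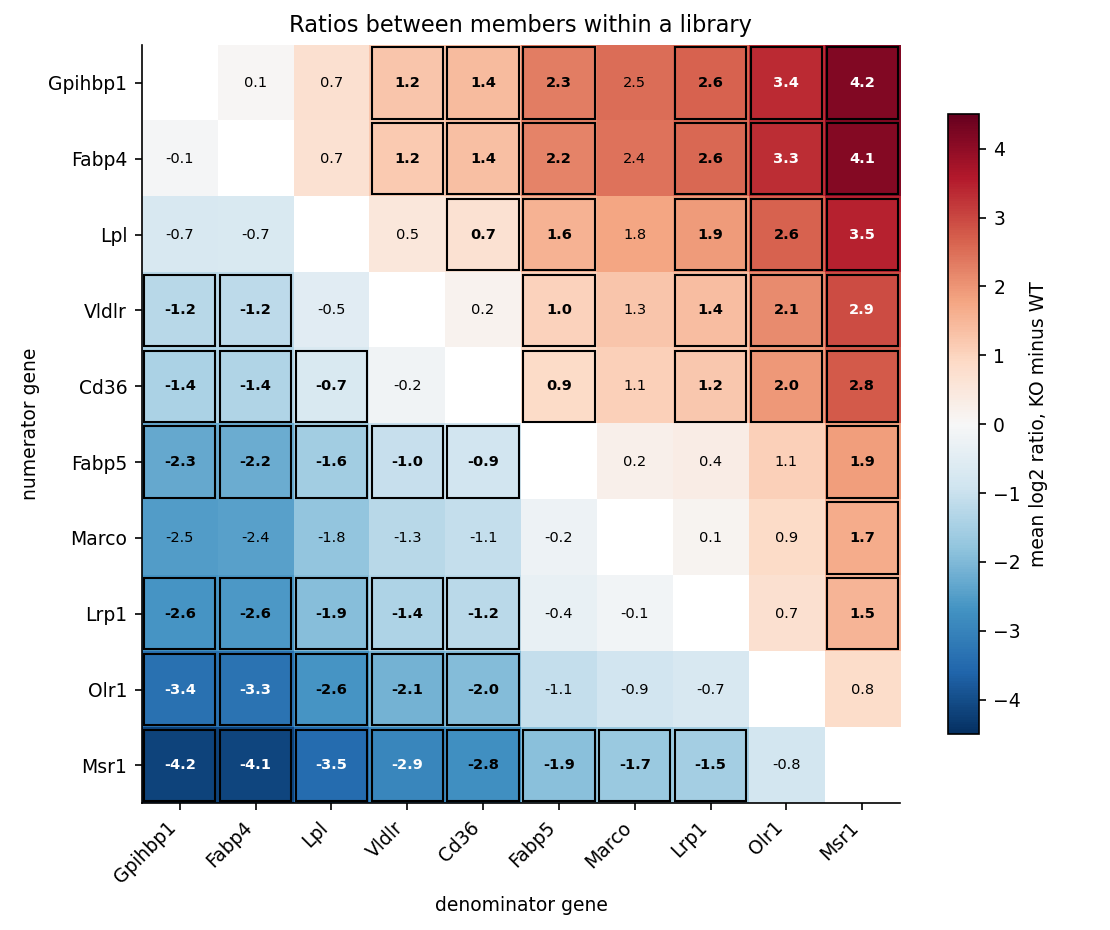
Difference between KO and WT in the mean log2 ratio of each row gene to each column gene (colour and printed value, log2 units; red higher and blue lower in KO). Boxed bold cells mark the pairs whose KO and WT libraries do not overlap, 28 of the 45 pairs, with the widest at 4.18 for Gpihbp1 against Msr1.

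For a comparison of levels between genes, the normalized count was divided by the length of the longest principal transcript in kilobases. On that per-length scale Fabp4 led both groups, at 292455 ± 31519 in KO and 117041 ± 40361 in WT (SD, n = 4 each, as for all levels here). Lpl followed at 65497 ± 6530 in KO and 40417 ± 6003 in WT, and Cd36 at 35470 ± 1981 in KO and 35522 ± 6786 in WT. Lpl and Cd36 were separate in KO and overlapped in WT. Next in KO came Gpihbp1 at 5915 ± 764, above Fabp5 at 3905 ± 865 and Lrp1 at 2278 ± 407. In WT the order of these 3 was Fabp5 at 6961 ± 757, Lrp1 at 5292 ± 1212 and Gpihbp1 at 2336 ± 971, with overlap between Fabp5 and Lrp1. Vldlr, at 444.7 ± 117.5 in KO and 392.1 ± 110.1 in WT, and Msr1, at 223.8 ± 39.9 in KO and 1609 ± 776 in WT, changed places between the groups. Marco and Olr1 were lowest in both, with Olr1 at 5.63 ± 2.79 in KO and 22.0 ± 10.8 in WT. In KO no neighbours in this order overlapped, and in WT Gpihbp1 and Msr1 overlapped besides the pairs already named.

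Together the 10 genes took 2.50%, 2.38%, 1.99% and 2.38% of all assigned reads in KO replicates 1 to 4, against 1.80%, 2.04%, 1.73% and 1.65% in WT. KO replicate 3 alone fell within the WT range, and in that library a single haemoglobin gene, Hbb-bs, took 5.78% of reads. Most of the share of the 10 genes came from Lpl, Fabp4 and Cd36. These 3 alone took 2.34%, 2.19%, 1.88% and 2.20% in KO, against 1.37%, 1.76%, 1.37% and 1.33% in WT.

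Within the WT group the genes ranked the libraries in different orders. Fabp4, Gpihbp1 and Vldlr were each highest in WT replicate 2, followed by replicates 4, 3 and 1, and the adipocyte marker sum ranked the libraries in the same way. Lrp1 was highest in WT replicate 1, followed by replicates 3, 4 and 2, which is also the order of the macrophage marker sum. Msr1 and Cd36 were both highest in WT replicate 1, followed by replicate 3. With 4 libraries these orders are a description only.

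For the 3 genes that did not pass, the most similar patterns among 14304 genes with a mean normalized count of at least 50 were found by Pearson correlation of log2 values over the 8 libraries. Cd36 was closest to Kcmf1 and Hnrnph2 (r = 0.977 each), Ik (0.973) and Gm8775 (0.970). Vldlr was closest to Irak2 (r = 0.987), Itga7 (0.979), Gm10851 (0.974), Slc4a7 (0.972) and Rtn4rl1 (0.966). For Marco the closest were Twistnb (r = 0.970), Sec11a (0.966), Atp6v0d1 (0.965), and Gm6736 and Gm15454 (0.961 each). The highest of so many correlations over 8 libraries are a description, and the 8 points fall into the same KO and WT groups for every gene.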

How the data were processed

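The deposited signal is a normalized count per gene in 8 libraries of total RNA. Per the submitters' processing notes, GRCm38.p6 was the genome, and STAR 2.7.7 and DESeq2 are the tools named. The read counter, its strand setting, its handling of shared reads and its annotation: not given in the sources used here. Within a library 100% of the deposited values were whole multiples of 1 read (tolerance 0.01 of a read), so reads were recovered. Of 24821 identifiers, 24802 matched GENCODE M21 without their version and 19 did not. Genes that reached a normalized count of 10 in 4 or more libraries entered limma 3.58.1 (R 4.3.3) on log2(normalized count + 1), fitted by group with trended variance and robust moderation. On simulated data with 98 genes changed 2-fold and 98 changed 4-fold, it called 43.9% and 84.7% of them and 0.0231% of unchanged genes. That simulation changed far fewer genes than passed here. A gene that did not pass may still differ. The threshold was an adjusted p (Benjamini-Hochberg) under 0.05. edgeR 4.0.16 and DESeq2 1.42.0 on recovered reads, other scalings, pseudocounts, filters and left-out libraries were alternatives. Within each group, libraries differed by more than sampling noise (chi-square per degree of freedom of at least 27.0). The 10 genes and the lists were chosen with earlier results of these data known. Genes named were the 10, Ccdc92, listed pathway genes past the test, at most 3 per role that did not pass, and the 5 closest patterns of members that did not pass. The genes given for an outlying library are named outside that limit. A few listed genes enter the counts without being named. Markers and liver-type genes named beside results were picked after their values were seen.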

Additional observations from a re-analysis of the deposited data

Results flagged for a closer look

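In 13 of 170 groups of 4 libraries examined (members, listed genes and ratios), 1 library lay far from the other 3 by Dixon's criterion at 95%, where chance gives about 1 in 20 groups.

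In WT replicate 3, 8 lipid genes that are typical of liver, intestine or kidney stood out. Fabp1 reached 2143 there and Fabp2 106.8, Apob 3922, Apoa5 1095 and Apoc3 892.1, while the other 3 WT libraries held at most 9.36 of any of these 5. Slc27a2 reached 1176, Slc27a5 697.2 and Lipc 102.1, all normalized counts. None of the 10 genes was outlying in that library.

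The other 5 were single genes. Lmf1 was high in WT replicate 4, at 556.2, with 471.6 to 480.7 in the other WT libraries. Sorl1 was high in the same library at 2264. Colec12 was high in KO replicate 4 at 2729. In KO replicate 3, Scarf1 was low at 694.4 and Apoc1 high at 1162.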

How the results depend on the processing

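Fabp5, Gpihbp1, Lrp1 and Msr1 kept their direction and passed under every alternative run. Quantile normalization turned Lpl to -0.25 and Cd36 to -0.32, ended the call of Fabp4 and left 1 member higher in place of 3. Cd36 ran from -0.0949 to 0.13 when single libraries were left out, and was -0.13 (limma adjusted p = 0.593) without both WT replicate 4 and KO replicate 3. A filter at 50 removed Olr1. Replicate numbers share only a label between groups: deviations of same-numbered libraries correlated at -0.143, 0.051, -0.041 and 0.172. With the replicate block 6266 genes passed in place of 7423, and the ratio of Fabp5 to Fabp4 kept its difference of -2.24 at p = 0.125, the smallest that an exact test of 4 pairs can give. Leaving out single libraries gave 5641 to 7079 genes, 28 to 32 separate pairs of members, -2.42 to -1.98 for Fabp5 to Fabp4 and -0.92 to -0.50 for Lpl to Gpihbp1. Slc27a3 (0.62, limma adjusted p = 0.0480) lost its call without any single library other than WT replicate 4, at adjusted p up to 0.1135. Scarf1 and Cd5l lost theirs without KO replicate 1, 2 or 4 or WT replicate 1 or 3, at up to 0.0742 and 0.0710. edgeR called 7435 genes and DESeq2 8336. Olr1 and Marco rest on few reads, which limits their precision.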
